A study of Mus musculus with 12 samples.

Results

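Medium spiny neurons are the main projection neurons of the striatum, which borders the amygdala, and 7 genes that mark them were followed here: Drd1, Drd2, Adora2a, Gpr6, Ppp1r1b, Pde10a and Rasd2. They were selected by gene symbol, with every probe annotated to them, out of 19057 genes that the Illumina mouse bead array covers with probes of 1 symbol. Levels on these same arrays were in view when the genes were chosen, so their levels and group differences are given as a description. Of the 7 genes, 6 had a probe, with 9 probes between them, and 5 genes with 7 probes were bright enough to enter the comparisons. Adora2a, an adenosine receptor gene, is matched by no probe in the annotation used here.

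The RNA came from bilateral amygdala punches of 1 mm from male C57Bl/6J mice aged 10 weeks, with 1 array per sample. The first of 3 groups was kept in the home cage (HC, n = 4), the second was taken 2 h after fear conditioning (FC, n = 4), and the third was immobilized, then fear conditioned and taken 2 h after conditioning (IMO_FC, n = 4). All mice shared strain, sex, age and tissue, and the labels name no transgene, drug or pooled animals. The series concerns Oprl1, the nociceptin receptor, in amygdala-dependent fear. Nothing says that each sample is a separate animal, so each p-value speaks only of the spread among these samples, which may be technical.

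Striatal medium spiny neurons release GABA and receive dense dopamine input. Those of the direct pathway carry the D1 receptor, which raises cyclic AMP, and those of the indirect pathway carry the D2 receptor, which lowers it, together with an adenosine receptor, the product of Adora2a, and GPR6. Cyclic AMP acts through protein kinase A on DARPP-32, the product of Ppp1r1b, which in its phosphorylated form inhibits protein phosphatase 1. PDE10A breaks cyclic AMP and cyclic GMP down, and the small GTPase Rhes, the product of Rasd2, dampens cyclic AMP signalling in these neurons. These genes are not private to the striatum: neurons of the central amygdala and the intercalated cell masses carry D1 or D2 receptors and DARPP-32 as well. Transcripts from amygdala cells and from striatum taken with the punch cannot be told apart on these arrays.

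The sequences around the start sites of 5 of the genes are shown for comparison. Drd1, Drd2, Pde10a and Rasd2 are among the 5 genes that varied together between arrays, as described further on, and Gpr6 was too dim to test. RefSeq promoter windows on build GRCm38.p6, from 250 bases before to 50 bases from the start site, matched 5 of the 7 genes. Drd1 and Pde10a have a second annotated start that is not printed. Windows for Adora2a and Ppp1r1b are not shown. Capitals mark 2 short motifs searched on both strands, the GC box (GGGCGG, or CCGCCC on the other strand) and the cyclic AMP response element half-site (TGACG, or CGTCA on the other strand). The first is at chr13:54055609-54055908 (minus strand), the second at chr9:49340153-49340452 (plus strand), the third at chr17:8801495-8801794 (plus strand), the fourth at chr10:41072241-41072540 (minus strand) and the last at chr8:75213694-75213993 (plus strand), each written 5′ to 3′ in the direction of the gene.
Drd1: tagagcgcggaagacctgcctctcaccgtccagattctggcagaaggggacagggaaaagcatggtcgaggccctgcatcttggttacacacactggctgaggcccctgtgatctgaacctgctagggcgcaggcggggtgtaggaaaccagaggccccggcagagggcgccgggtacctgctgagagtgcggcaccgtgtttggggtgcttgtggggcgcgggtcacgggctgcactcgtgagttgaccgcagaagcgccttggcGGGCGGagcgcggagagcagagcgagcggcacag
Drd2: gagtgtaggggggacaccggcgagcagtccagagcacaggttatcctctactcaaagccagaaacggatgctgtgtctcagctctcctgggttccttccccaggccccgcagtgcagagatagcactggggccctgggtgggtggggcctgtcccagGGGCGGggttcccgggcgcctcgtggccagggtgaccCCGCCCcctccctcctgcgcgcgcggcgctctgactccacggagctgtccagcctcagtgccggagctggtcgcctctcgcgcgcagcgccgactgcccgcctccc
Pde10a: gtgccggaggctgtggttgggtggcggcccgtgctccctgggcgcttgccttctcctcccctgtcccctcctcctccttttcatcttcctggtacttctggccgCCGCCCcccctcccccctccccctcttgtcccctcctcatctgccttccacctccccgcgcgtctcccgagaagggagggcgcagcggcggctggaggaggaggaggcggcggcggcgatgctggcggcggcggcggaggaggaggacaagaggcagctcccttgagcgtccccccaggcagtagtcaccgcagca
Gpr6: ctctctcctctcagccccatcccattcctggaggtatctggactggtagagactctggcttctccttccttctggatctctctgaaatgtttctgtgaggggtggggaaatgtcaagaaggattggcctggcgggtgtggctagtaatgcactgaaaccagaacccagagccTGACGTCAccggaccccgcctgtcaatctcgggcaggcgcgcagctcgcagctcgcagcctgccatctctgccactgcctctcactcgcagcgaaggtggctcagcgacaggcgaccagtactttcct
Rasd2: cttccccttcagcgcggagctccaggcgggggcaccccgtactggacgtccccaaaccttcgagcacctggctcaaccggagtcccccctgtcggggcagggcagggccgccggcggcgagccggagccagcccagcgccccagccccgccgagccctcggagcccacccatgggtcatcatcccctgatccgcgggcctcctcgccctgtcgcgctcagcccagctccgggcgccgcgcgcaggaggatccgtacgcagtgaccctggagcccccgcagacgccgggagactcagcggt

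The Drd2 window holds a pair of GC boxes, at −93 and −56 relative to the start site. Drd1 has 1 GC box at 17 bases into the transcript, and Pde10a has 1 at −146. The GC box occurred in 35.7% of 32851 mouse windows of the same length. The Gpr6 window holds the palindrome TGACGTCA, in which 2 half-sites overlap, at −78 and −75. The half-site occurred in 20.8% of the windows. A TATA box (TATAAA) was also searched. It was in none of the 5 windows printed here and in 13.6% of all windows. The Rasd2 window held none of the 3 motifs. GC content of the printed windows ran from 58.7% for Gpr6 to 74.7% for Rasd2. These are letter matches in short windows, and no data on binding were examined.

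On FC 1 and FC 3 the arrays measured little. A probe counts as detected where the deposited detection p is under 0.05, and 11.69% and 15.94% of 45281 probes were detected there, against 38.97% to 50.7% on the other 10 arrays. Signals on the 10 arrays ranked alike (Spearman rho 0.77 to 0.933), whereas FC 1 reached 0.219 to 0.312 with them and FC 3 0.314 to 0.409. Between 7 and 8 of the 9 probes of the striatal genes were detected on each of the 10 arrays, 1 was on FC 1 and 2 were on FC 3. Levels are therefore given for the 10 arrays, with n = 2 for FC, and the main differences with all 12 arrays are given after them. Levels are log2 values after background correction and quantile normalization, and levels of different probes cannot be set against each other. All 10 central amygdala genes listed and 8 of 10 genes of basolateral and cortical excitatory neurons passed the detection filter. Their detection alone does not show which tissue the RNA came from. Emx1, of cortical excitatory neurons, and Oprm1, a mark of intercalated cells, had probes that were detected on none of the 10 arrays.

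The dopamine receptors come first. Drd1, the D1 receptor gene, stood at log2 8.24, 7.59, 7.43 and 8.17 on the HC arrays 1 to 4. On FC 2 and FC 4 it stood at 7.69 and 8.61, and on the IMO_FC arrays 1 to 4 at 8.27, 7.48, 7.76 and 8.12. Each group held high and low arrays, and the groups overlapped. The difference between group means was 0.29 ± 0.369 (SE) for FC relative to HC, 0.05 ± 0.301 for IMO_FC relative to HC and −0.24 ± 0.369 for IMO_FC relative to FC. The range within HC alone was 0.81, or 1.76-fold, wider than any of those differences. In this bulk tissue, fewer cells of a type and less RNA per cell cannot be told apart.

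Drd2, the D2 receptor gene, was more variable. On the HC arrays it stood at 6.62, 5.55, 6.33 and 7.32, so that the highest HC array was 3.43-fold above the lowest. On FC 2 and FC 4 it stood at 5.31 and 6.52. The IMO_FC arrays were at 7.60, 7.01, 6.45 and 6.53. FC and IMO_FC overlapped only in that FC 4 lay above IMO_FC 3, while HC spanned most of both. The mean for IMO_FC was 0.99 ± 0.518 above that for FC (95% interval −0.16 to 2.13), the largest of the 15 differences between groups over the 5 genes by their brightest probes. It was 0.45 ± 0.423 above HC, and FC was −0.54 ± 0.518 from HC.

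Gpr6, a constitutively active receptor that raises cyclic AMP in indirect-pathway neurons, was near background. It was detected on 2 of the 10 arrays, HC 1 and FC 2, and so was not tested. FC 2 stood alone at 6.79, with a deposited signal of 143.7 against 43.7 to 73.3 on the other 9 arrays. HC arrays lay at 4.90, 4.35, 4.73 and 4.51, FC 4 at 4.81 and the IMO_FC arrays at 4.64, 4.44, 4.47 and 4.40. No IMO_FC array detected the probe, and the measured mean there was 4.49. The FC mean of 5.80 was 1.76-fold above IMO_FC when its arrays were raised to the detection floor. That floor is, for each IMO_FC array, the lowest level among detected probes. The fold is not a lower bound, since the FC mean takes the undetected FC 4 at its measured 4.81. It rests on FC 2. FC 2 is also the array on which the D2 receptor gene was lowest among the 10.

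Ppp1r1b encodes DARPP-32 and has 3 probes, all detected on the 10 arrays. The brightest stood at 9.77, 8.13, 9.18 and 9.43 in HC, at 8.55 and 9.69 on FC 2 and FC 4, and at 10.42, 9.29, 8.44 and 9.04 in IMO_FC. The 3 lowest arrays, HC 2, IMO_FC 3 and FC 2, came one from each group, and so did the 3 highest, HC 1, FC 4 and IMO_FC 1. Group means differed by −0.01 ± 0.584 for FC relative to HC, 0.17 ± 0.477 for IMO_FC relative to HC and 0.18 ± 0.584 for IMO_FC relative to FC. This probe spanned 1.99 within IMO_FC, or 3.97-fold.

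The other Ppp1r1b probes shared much of that pattern but not all of it. The second (ILMN_2651660) stood at 7.81, 6.32, 8.17 and 8.81 in HC, at 5.99 and 9.15 on FC 2 and FC 4, and at 8.59, 8.26, 8.02 and 8.62 in IMO_FC. Its FC arrays were 8.90-fold apart. The third (ILMN_1253473) stood at 5.17, 4.99, 5.67 and 7.59 in HC, at 6.73 and 7.18 in FC, and at 7.91, 6.39, 6.29 and 6.53 in IMO_FC. The 3 probes did not give the same difference between FC and HC: −0.01 for the brightest, −0.21 ± 0.803 for the second and 1.10 ± 0.687 for the third. For IMO_FC relative to HC all 3 were above 0, at 0.17, 0.60 ± 0.656 and 0.92 ± 0.561. With each group mean removed, the probes correlated pairwise at r = 0.564 to 0.681 over the 10 arrays.

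Pde10a, the phosphodiesterase gene, stood at 9.09, 7.73, 8.17 and 8.78 in HC, at 8.72 and 8.90 on FC 2 and FC 4, and at 9.06, 8.19, 7.62 and 8.24 in IMO_FC. The FC pair lay close together, inside the range of the HC arrays and inside that of the IMO_FC arrays. Means differed by 0.37 ± 0.443 for FC relative to HC, −0.17 ± 0.362 for IMO_FC relative to HC and −0.54 ± 0.443 for IMO_FC relative to FC. A second Pde10a probe (AK046535) was detected on 0 of 12 arrays.

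Rasd2, the Rhes gene, stood at 7.59, 6.60, 6.88 and 6.61 in HC, at 7.02 and 7.56 on FC 2 and FC 4, and at 8.20, 8.06, 6.52 and 7.56 in IMO_FC. IMO_FC held both the highest arrays and the lowest one, IMO_FC 3. The mean for IMO_FC was 0.66 ± 0.384 above HC (95% interval −0.19 to 1.51), the largest difference of the 5 genes in that comparison by their brightest probes. FC was 0.37 ± 0.471 above HC, and IMO_FC was 0.30 ± 0.471 above FC.

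**Figure D1:**
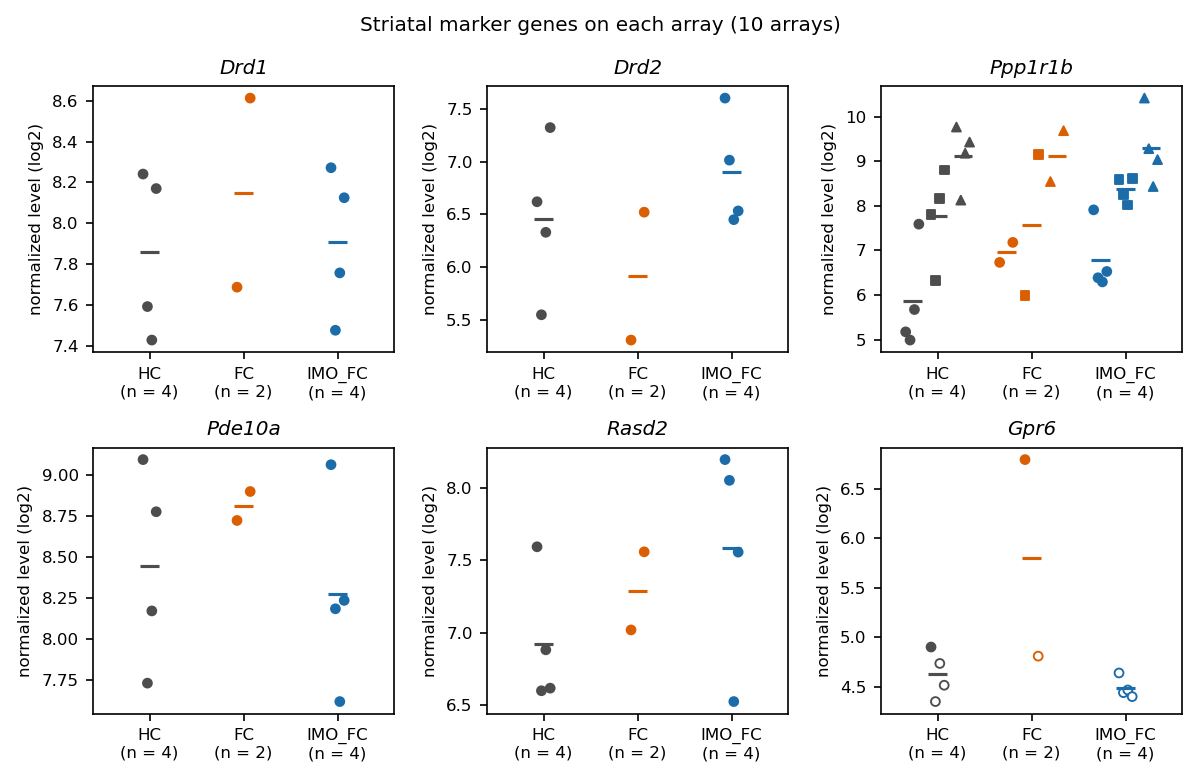
Normalized log2 levels of 6 striatal marker genes on 10 arrays, by group (HC and IMO_FC n = 4, FC n = 2), with a point per array and a bar at the group mean. Open points were not detected, and the 3 symbols for Ppp1r1b are its probes, ILMN_1253473 (circles), ILMN_2651660 (squares) and the brightest (triangles). Groups overlapped for every gene with a tested probe, and FC 2 stood alone for Gpr6 at 6.79.

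Across the 10 arrays none of the 7 probes of these genes was called by limma in any comparison, and their groups overlapped in every case. Nor was any probe called among all 23260 tested at adjusted p under 0.05 (Benjamini-Hochberg): the share was 0% in each of the 3 comparisons, where the lowest adjusted p was 0.999. The share of all tested probes whose groups overlapped was not computed. For that reason, and because the genes were chosen with these levels in view, nothing is read from their calls or overlap. At an unadjusted p under 0.05, 0 of the 7 probes passed in any comparison, against 3.46% of all tested probes for FC relative to HC, 3.17% for IMO_FC relative to HC and 3.5% for IMO_FC relative to FC. By their brightest probes, 3 of the 5 genes had a higher mean in FC than in HC (median 0.29 against −0.01 for all 11585 genes). For IMO_FC relative to HC 4 of the 5 genes were higher (median 0.17 against −0.02), and for IMO_FC relative to FC 3 of the 5 were (median 0.18 against −0.01). The comparisons share arrays, so their values are not independent of each other.

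With FC 1 and FC 3 included, the differences that involve FC turned for some genes. On those arrays the Ppp1r1b brightest probe was detected, at signals of 172.1 and 1056, while its other probes, Drd2, Pde10a and Rasd2 were not detected. Drd1 was not detected on FC 1, at a signal of 38.49, and was on FC 3, at 69.09. With 12 arrays Pde10a stood at −1.69 ± 0.897 for FC relative to HC and at 1.52 ± 0.897 for IMO_FC relative to FC, both opposite in sign to the values from 10 arrays. The Ppp1r1b brightest probe went the other way from Pde10a, at 0.80 ± 0.599 and −0.63 ± 0.599. Drd1 turned sign as well, to −0.0074 ± 0.429 and 0.06 ± 0.429, while Drd2 (−0.58 ± 0.525 and 1.01 ± 0.525) and Rasd2 (0.34 ± 0.423 and 0.31 ± 0.423) did not. Normalization of the 12 arrays placed undetected Rasd2 at 7.24 on FC 1 and 6.83 on FC 3. It placed undetected Drd2 at 4.59 and 6.63, and undetected Pde10a at 4.47 on both. Kept and turned signs thus rest partly on undetected values. The Ppp1r1b second probe reached 2.30 ± 0.865 for IMO_FC relative to FC (limma adjusted p = 0.356). It was the 1 probe of the 7 at an unadjusted p under 0.05, in a comparison where 13.7% of 23516 tested probes were. That share was 16.7% for FC relative to HC and 0.4% for IMO_FC relative to HC, and 0 of the 7 passed in either. No probe was called after adjustment with 12 arrays (0%). The median of the 5 genes was then −0.0074 for FC relative to HC, 0.17 for IMO_FC relative to HC and 0.31 for IMO_FC relative to FC, where the medians of all genes were −0.34, −0.02 and 0.32. For IMO_FC relative to HC, which FC enters only through the shared spread and the joint normalization, the values stayed near those from 10 arrays, such as 0.65 ± 0.423 for Rasd2 and −0.17 ± 0.897 for Pde10a.

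**Figure D2:**
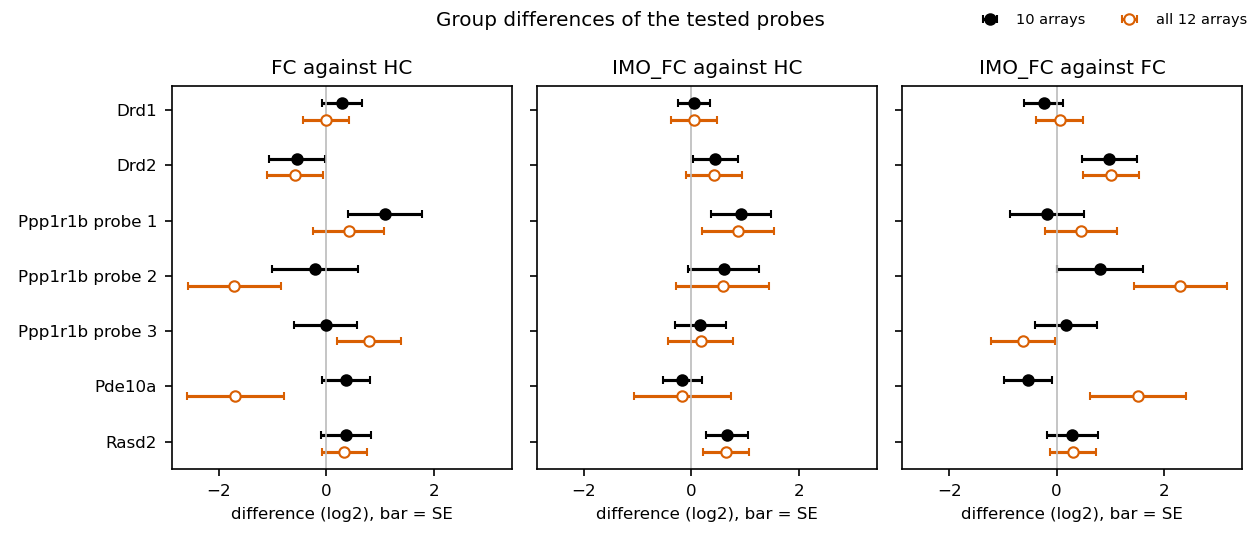
Differences between group means (log2, bars are the SE) for the 7 tested probes of the striatal genes, from 10 arrays (black) and from all 12 arrays (open), in the 3 comparisons. Ppp1r1b probes 1 to 3 are ILMN_1253473, ILMN_2651660 and the brightest. No black point lies farther from 0 than the 1.10 of Ppp1r1b probe 1, and Pde10a changes side with FC 1 and FC 3 in both comparisons that involve FC.

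The 5 genes varied together from array to array within the groups. Each gene is read here by its brightest probe, with its group mean removed. All 5 genes were above their group mean on HC 1, FC 4 and IMO_FC 1, and all 5 were below it on HC 2, FC 2 and IMO_FC 3. The other Ppp1r1b probes did not share the rise on HC 1. There the third was at 5.17 against an HC mean of 5.86, and the second at 7.81 against 7.78. On HC 4 there were 4 above, on IMO_FC 2 there were 2, and on HC 3 and IMO_FC 4 there was 1. The mean deviation of the 5 ran from −0.64 on both HC 2 and IMO_FC 3 to 0.72 on IMO_FC 1, with an SD of 0.539 within groups. The means of the groups on the same scale were −0.11 for HC, −0.02 for FC and 0.12 for IMO_FC. With only FC 2 and FC 4 in that group, their deviations of −0.40 and 0.40 mirror each other by construction.

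Pairs of the 5 genes correlated at r = 0.379 to 0.913 over the 10 arrays, all 10 pairs above 0. The closest pair was Ppp1r1b and Pde10a (r = 0.913, rho = 0.879), followed by Drd2 and Ppp1r1b (r = 0.879). The D1 and D2 receptor genes, which mark separate output pathways, correlated at 0.675. The loosest pair was Drd1 and Rasd2 (0.379). The genes share the arrays, the RNA samples and the normalization, so these values describe the 10 arrays and carry no p. Within-group SDs were 0.434 for Drd1, at the 45.8th percentile of all tested probes, 0.558 for Pde10a (65.1), 0.602 for Rasd2 (70.5) and 0.677 for Drd2 (78.8). For the 3 Ppp1r1b probes they were 0.778, 0.933 and 1.105, at percentiles 87.3, 94.6 and 98.1.

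Arrays high in the 5 genes also differed in overall brightness. HC 1 and IMO_FC 1, with the highest mean deviations of the 5 genes (0.50 and 0.72), had the lowest median deposited signals of the 10 arrays, at 43.45 and 45.71 against 57.61 to 77.82. IMO_FC 1 also had the lowest share of detected probes, 38.97%, while HC 1 had the highest, 50.7%. FC 4 and HC 4, also above their group means at 0.40 and 0.30, had ordinary medians of 72.15 and 69.77.

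**Figure D3:**
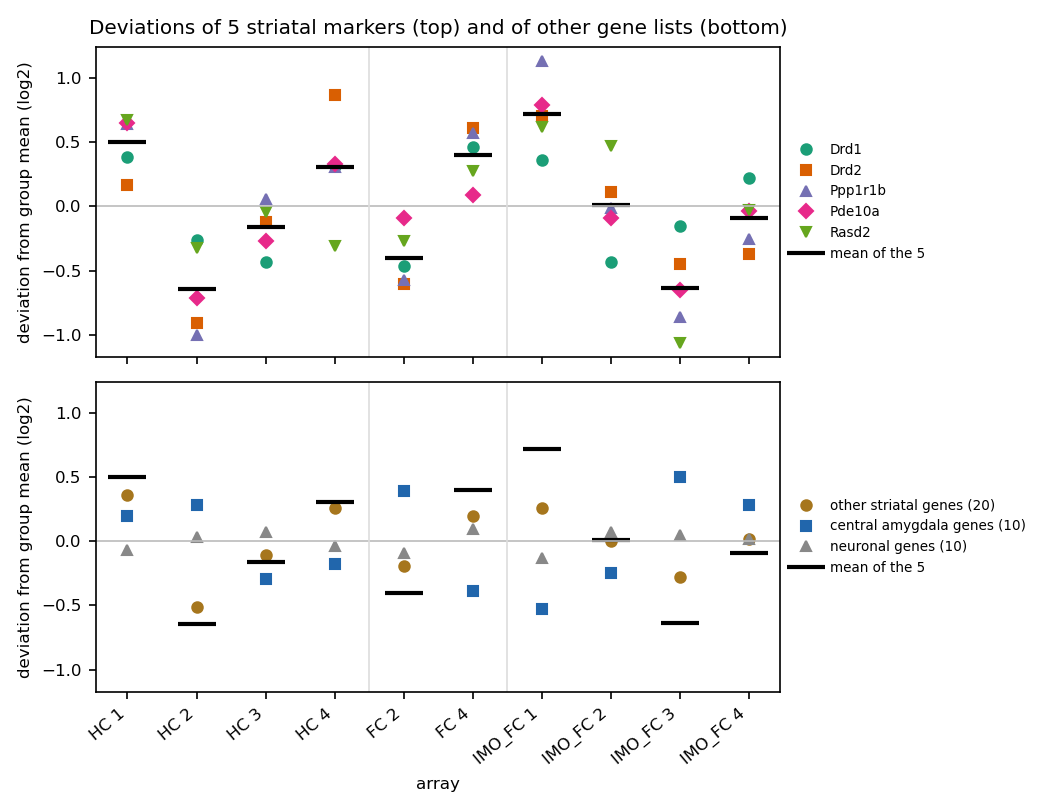
Deviation from the group mean (log2) on each of 10 arrays, for the 5 striatal genes by their brightest probes (top, bar at their mean) and for the means of other striatal genes (20), central amygdala genes (10) and neuronal genes (10) with the same bar (bottom). All 5 genes sit above 0 on HC 1, FC 4 and IMO_FC 1 and below 0 on HC 2, FC 2 and IMO_FC 3, and neuronal genes stay near 0 throughout.

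A wider set of 23 other genes enriched in striatal medium spiny neurons was read beside them. It holds, among others, Rgs9, which speeds up G protein deactivation, Gnal, the G protein subunit through which the D1 receptor acts, the peptide precursors Penk, Pdyn and Tac1, and the transcription factors Bcl11b, Foxp1, Isl1 and Six3. Of these, 20 were tested, and Adcy5, the main adenylyl cyclase of striatum, was detected on none of the 10 arrays. Many of the 20 are also expressed by amygdala neurons. None of the 20 was called by limma in any comparison. Of all tested probes 3.17% to 3.5% were at an unadjusted p under 0.05, and of these 20 genes 0 were. For FC relative to HC 7 were higher and 13 lower (median −0.06), for IMO_FC relative to HC 11 and 9 (median 0.06), and for IMO_FC relative to FC 11 and 9 (median 0.21). With all 12 arrays these medians were −0.79, 0.06 and 0.85. The highest for IMO_FC relative to HC were Rarb, a retinoic acid receptor gene, at 0.89 ± 0.522 and Penk, the enkephalin precursor, at 0.51 ± 0.481. The lowest were Pde1b, a calcium-dependent phosphodiesterase gene, at −0.44 ± 0.274 and Six3 at −0.32 ± 0.482.

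Between arrays, the mean deviation of these 20 genes went with that of the 5 (r = 0.948, rho = 0.964, 10 arrays). It was 0.36 on HC 1 and −0.51 on HC 2, and 0.26 on IMO_FC 1 and −0.28 on IMO_FC 3. Without IMO_FC 1 and HC 2, the arrays farthest from the median, r was 0.976, and without the FC arrays it was 0.943 over 8 arrays. Without HC 1 and IMO_FC 1, the arrays of lowest median signal, it was 0.97. One by one, 17 of the 20 genes correlated positively with the mean of the 5, with a median r of 0.459 against −0.04 for all 11221 genes ranked. Among the 100 genes of highest correlation were 3 of the 20 (15%), namely Syndig1l, Gng7 and Arpp21, against 0.891% of all ranked genes. The exceptions were Isl1 (−0.13), Rxrg (−0.24) and Sp9 (−0.31). The level of the 20 ranged from −0.53 to 0.34 in HC, from −0.28 to 0.11 in FC and from −0.22 to 0.32 in IMO_FC, so the groups overlapped here too.

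Central amygdala genes went the other way. The list holds Prkcd, Sst, Crh, Nts, Tac2, Calcrl, Dlk1, Cartpt, Pnoc and Gal, and all 10 were tested. Most are genes for peptides of central amygdala neurons, with a kinase and a receptor among the rest. Their mean deviation was lowest on IMO_FC 1 (−0.53), where the striatal genes were highest, and highest on IMO_FC 3 (0.50), where they were low. Over the 10 arrays r was −0.72 (rho = −0.745), −0.586 without IMO_FC 1 and HC 2, and −0.656 without FC. HC 1 departed from this, with both lists above their group mean (0.20 for the central amygdala genes), and so did HC 3, with both below it (−0.16 for the striatal and −0.29 for the central amygdala genes). On the other 8 arrays the lists had opposite signs, and without HC 1 r was −0.899. One by one, 0 of the 10 genes correlated positively with the mean of the 5 striatal genes (median r −0.36). By group, their level ranged from −0.22 to 0.35 in HC, from −0.61 to 0.17 in FC and from −0.49 to 0.54 in IMO_FC. Their part in the levels of the striatal genes was not tested.

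**Figure D4:**
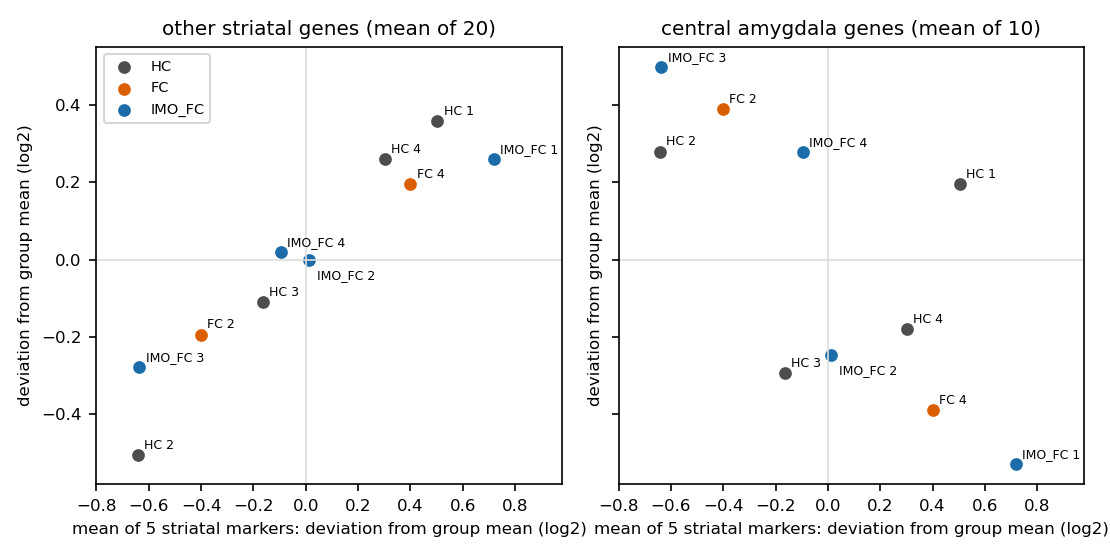
Mean deviation from the group mean (log2) of the 5 striatal genes (horizontal) against that of 20 other striatal genes (left) and 10 central amygdala genes (right), with a labelled point per array, coloured by group. The left points lie near a rising line (r = 0.948), and the right points fall from IMO_FC 3 to IMO_FC 1 (r = −0.72) with HC 1 and HC 3 in the corners where both lists have the same sign.

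Other cell types were read in the same way. Cholinergic genes of striatum and basal forebrain went with the striatal genes (r = 0.762 for 4 genes of 5 listed, 0.667 without IMO_FC 1 and HC 2). One by one, the median r of these 4 genes, Slc5a7 among them, was 0.48. Their level ranged from −0.58 to 0.66 in HC, from −0.64 to −0.11 in FC and from −0.10 to 0.46 in IMO_FC. Genes of intercalated cells did so at 0.664 (4 of 5 genes), which dropped to 0.397 without those arrays. For microglia r was 0.64 (7 of 8 genes) and for oligodendrocytes 0.448 (7 of 8). Genes of neurons of any kind gave −0.386 (10 of 10), astrocytes −0.284 (8 of 8), choroid plexus −0.271 (5 of 8), excitatory neurons −0.222 (8 of 10) and hypothalamus −0.143 (3 of 6, with Hcrt and Otp never detected). Without IMO_FC 1 and HC 2, astrocytes and choroid plexus turned to 0.03 and 0.11, neuronal genes stood at −0.06 and oligodendrocytes at 0.71. Without the FC arrays (8 arrays) the values were −0.52 for astrocytes, −0.544 for choroid plexus, −0.794 for neuronal genes and 0.276 for oligodendrocytes, so these relations depended on the arrays used. The mean over the neuronal genes moved little, between −0.14 and 0.09 around its 10-array mean on any array, though opposite deviations of single genes can cancel in it. Choroid plexus genes spread most, from −0.30 to 1.57 in HC, from −0.88 to 0.26 in FC and from −0.90 to 0.02 in IMO_FC. By limma for IMO_FC relative to HC, 2 of 7 microglia and 2 of 5 choroid plexus genes were at an unadjusted p under 0.05. So were 1 of 4 cholinergic and 1 of 10 central amygdala genes, against 3.17% of all tested probes. For IMO_FC relative to FC 1 of 4 cholinergic genes was, against 3.5%. None was called after adjustment. The part of these other cells in the levels of the striatal genes was not tested.

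The partners of the dopamine receptors inside the cell were also listed: 25 genes for G protein subunits, subunits of protein kinase A, protein phosphatases, other kinases and phosphodiesterases, and Creb1. All 25 were tested, and none was called by limma in any comparison. Of all tested probes 3.17% to 3.5% were at an unadjusted p under 0.05, and of these 25 genes 0 were. For FC relative to HC 12 were higher and 13 lower (median −0.01), for IMO_FC relative to HC 7 and 18 (median −0.02) and for IMO_FC relative to FC 10 and 15 (median −0.04). With all 12 arrays the medians were −0.73, −0.02 and 0.70. The extremes for IMO_FC relative to HC were Gnas, the stimulatory G protein subunit, at 0.37 ± 0.277, Creb1, the transcription factor at the end of the cyclic AMP pathway, at 0.17 ± 0.181, Gnai2, an inhibitory subunit, at −0.35 ± 0.304, and Ppp1cc, a catalytic subunit of the phosphatase that DARPP-32 inhibits, at −0.18 ± 0.201. The mean deviation of these broadly expressed genes varied little between arrays, from −0.13 to 0.08. Opposite deviations of single genes can cancel in such a mean. One by one, 8 of 25 correlated positively with the 5 striatal genes (median r −0.24).

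The 10 genes whose deviations were most like the mean of the 5, out of 11221 ranked over the 10 arrays, were led by Slc5a7 (r = 0.977), the choline transporter of cholinergic neurons. Slc5a7 is also in the cholinergic list read above, so that list and this ranking share it. Kcnk3 (0.967) encodes a background potassium channel and Alyref (0.966) an mRNA export factor. Next came Tspan17 (0.953), a tetraspanin, and Slc10a4 (0.948), a synaptic vesicle protein of cholinergic and monoamine neurons. Pttg1ip (0.937), Palmd (0.934), Epyc (0.934), Syndig1l (0.928) and Htr1d (0.923), a serotonin receptor gene, completed the list. They are the top of a ranking over few arrays and carry no p. Without IMO_FC 1 and HC 2, r for these 10 genes ran from 0.873 (Syndig1l) to 0.973 (Kcnk3).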

How the data were processed

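Signals of 45281 probes on 12 single-colour Illumina mouse bead arrays were read from the deposited table. Per the file headers, it gives each array an unnormalized signal intensity and a detection p-value per probe. A second deposited table holds intensity normalized by the authors by a method not stated, on a linear scale (array medians 60.03 to 60.67), and was tried as one alternative setting. RNA, per the labels, was isolated with the RNeasy Mini Kit and labelled with biotin. No genome build is named. All value columns were assigned to samples (0 unused).

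Here, limma 3.58.1 in R 4.3.3 corrected background from detection p-values (neqc, offset 16) and applied quantile normalization with log2 values. Tested were those probes that at least 4 of the arrays used detected at p under 0.05: 23260 probes of 11585 genes with 10 arrays, 23516 with 12. Probes with 1 gene symbol numbered 34885, with several 18 and with none 10378. A single linear model with a mean per group (7 residual degrees of freedom, 9 with 12 arrays) gave differences, standard errors and 95% intervals, with Benjamini-Hochberg adjustment over all tested probes at 0.05. A gene's brightest tested probe stood for it in lists. Deviations are log2 levels minus the gene's group mean, averaged over a list; list levels by group are relative to the mean of the 10 arrays. Likeness was ranked over genes with 1 symbol, without predicted or unnamed transcripts.

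FC 1 and FC 3 were left out for their low detection, which was known from earlier work on these data. The genes, the 12 other lists (126 genes, 111 tested) and the tests were likewise chosen with earlier results of these data known. Named are every striatal gene, the highest and lowest 2 of the other striatal and signalling lists for IMO_FC relative to HC, and the 10 genes most alike; other names were chosen after their values were seen. The main fit did not pair samples by replicate number. The number of arrays limits the precision. Alternatives covered normalization, detection filter, variance model, array weights, samples, replicate block and single arrays.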

Additional observations from a re-analysis of the deposited data

Results flagged for a closer look

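Among 18 sets of 4 arrays (9 probes in HC and in IMO_FC), 1 had an array far from the others. The Ppp1r1b probe ILMN_1253473 stood at 7.91 on IMO_FC 1, against 6.53 on the nearest of the other IMO_FC arrays. The gap was 0.855 of the group's range, above Dixon's critical value for 4 samples. Chance flags about 1 in 20 such sets. IMO_FC 1 was also the highest IMO_FC array for Drd1, Drd2, Pde10a, Rasd2 and the Ppp1r1b brightest probe, and it had the lowest share of detected probes of the 10 arrays.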

How the results depend on the processing

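The fits were repeated under 22 alternatives, 10 of which left out 1 array each. No striatal gene was called under the 21 that give a p-value. The other, the mean over a gene's tested probes, gave differences only. Without a filter on dim probes 2 probes were called in FC relative to HC (Cd180 and Ppp4r1l-ps) and 3 in IMO_FC relative to FC (the same 2 and 1 without a symbol), each detected on 2 or 3 of the 10 arrays. Under the other alternatives with a p-value 0 were called. Leaving out single arrays moved the median of the 5 genes between −0.17 and 0.56 for FC relative to HC and between −0.07 (without IMO_FC 1) and 0.46 (without IMO_FC 3) for IMO_FC relative to HC. For IMO_FC relative to FC it moved between −0.39 (without FC 2) and 0.57 (without FC 4). It was also below 0 without IMO_FC 1 (−0.20) and with array weights (−0.20). Without a detection filter Gpr6 joined the 5 genes, and the median of the 6 was −0.03. With the stricter filter Drd2 dropped out, and the median of the 4 left was −0.03 as well. Drd2 and Rasd2 kept their sign for IMO_FC relative to HC and for IMO_FC relative to FC under every alternative that gave them a value. With all 12 arrays, their values on FC 1 and FC 3 were those of undetected probes. Drd1 for FC relative to HC ran from −0.17 to 0.75.

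The relations between lists were examined under alternatives chosen after seeing the data. The r with other striatal genes was 0.815 with all 12 arrays and 0.886 to 0.978 with single arrays left out. That with central amygdala genes was −0.899 to −0.581 with single arrays left out and −0.534 with all 12. Where 1 FC array was left out, the lone one was assumed to vary like the other groups.

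Over all tested probes, samples of the same number correlated at r −0.142 to 0.186 (8 pairs, median 0.06). Those of different number did so at −0.22 to 0.22 (24 pairs, median −0.03). The mean deviation of the 5 genes shared its sign on HC 1 and IMO_FC 1, HC 2 and FC 2, HC 3 and IMO_FC 3, and HC 4 and FC 4. IMO_FC 2 (0.01) and IMO_FC 4 (−0.09) had the other sign from HC and FC of their number. The part of replicate number in this pattern was not tested. With the replicate number as a replicate block 0 probes were called in each comparison, and the median of the 5 genes was 0.33, 0.17 and −0.06 in the order FC over HC, IMO_FC over HC, IMO_FC over FC. A slide block was not run, since no slide is named.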
